A study of Oryza sativa with 10 samples.

Results

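Rice endosperm, the storage tissue of the grain, was compared with the embryo, the leaf and the root on Affymetrix rice genome arrays. All 57194 non-control probe sets of the table were considered, on 2 endosperm arrays and 6 arrays of the other tissues, which is 8 of the 10 arrays of the study. The endosperm value of each probe set was set against the mean of embryo, leaf and root, each tissue counting equally, and then against each tissue by itself. The gap to the next highest tissue is the endosperm level minus the highest of the 3 other tissue levels. All plants were Oryza sativa, japonica cultivar Zhonghua 11, untreated, grown in a phytotron at 28 °C by day and 22 °C by night. Embryo and endosperm came from seeds 6 days after anthesis, and leaf and root from seedlings 7 days old. Whole seedlings 10 days old filled the remaining 2 arrays and stayed outside the tests. Each tissue has 2 arrays, which the study calls biological repeats. Organ and age changed together, so a difference between endosperm and leaf or root cannot be told apart from one between a developing seed and a seedling. All RNA came from whole dissected tissue, in which fewer cells of a type and less RNA per cell cannot be told apart.

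Cereal endosperm arises from the second fertilization event of the embryo sac and is triploid. It first passes through nuclear divisions without walls, then forms cells, and its inner cells load starch granules and protein bodies until they die. Sucrose reaches it from the mother plant, through maternal tissue around the embryo sac, and is cleaved and turned into ADP-glucose for starch synthesis. Storage proteins, mainly glutelins and prolamins in rice, are made at the endoplasmic reticulum and packed into vacuoles or into bodies within the reticulum itself.

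The levels are MAS5 signals, the scaled brightness of a probe set on a linear scale without unit, and tests were run on log2(signal + 16) with limma's moderated test. A probe set was tested when its signal reached 100 on at least 2 of the 8 arrays, which 29426 probe sets (51.4%) did. It was called at an adjusted p under 0.05 (Benjamini-Hochberg, over all probe sets tested) with at least a 2-fold difference. With 2 arrays per tissue, the number of arrays limits the precision. Repeats agreed less in endosperm and root than in the other tissues. The correlation between repeats over tested probe sets was 0.925 in endosperm and 0.906 in root, against 0.973 in embryo and 0.983 in leaf. Between the endosperm arrays 26.0% of the tested probe sets were at least 2-fold apart, between the leaf arrays 3.21%. The ratio of 3′ to 5′ signal of the Gapdh control was 4.71 and 5.28 in endosperm, 1.65 to 1.82 in embryo, 26.3 and 29.1 in leaf, and 2.04 and 24 in root. Among the poly-A controls, the ratio on endosperm 1 was 143 for dap and 945 for thr, against 3.36 to 4.94 and 5.25 to 7.88 on the 7 other arrays, so endosperm 1 stood apart. The hybridization spike-ins, added in fixed amounts, were brighter on the endosperm arrays (geometric means 5520 and 5050) than on the 6 others (1800 to 3530). The part of these differences in the results was not tested. Counts without endosperm 1 and without endosperm 2 are given below.

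The tissue labels were checked against marker genes. Of the 10 endosperm markers, which include Wx, prolamin, glutelin and NFYB1 genes, 9 were higher in endosperm and SUT1 was not called. Their summed signal was 396867 and 312554 on the endosperm arrays, 92244 and 93797 on the embryo arrays and 11889 to 13172 on the leaf and root arrays. Endosperm thus stood apart from all 6 other arrays, and embryo held the second highest level. All 5 root markers were lower in endosperm, with summed signals of 266 and 535 against 44895 and 45159 in root. Of the 9 green tissue markers 4 were lower and none was higher. The sum of the green markers was 5612 on endosperm 1 and 32560 on endosperm 2, against 86967 to 96114 in leaf. It was 30180 on root 1 and 8217 on root 2, and 3079 and 2417 in embryo. The endosperm arrays thus differed from each other in green tissue signal, as did the root arrays. Of the 6 embryo markers 3 were higher in endosperm than the mean and 2 lower. They summed to 14085 and 12845 in endosperm, 58891 to 73724 in embryo and 2861 to 4652 in leaf and root, so endosperm lay between. The 3 genes listed for the nucellus and other maternal tissue (SWEET11, MADS29 and GIF1) summed to 29096 and 24373 in endosperm and to at most 2784 in the 6 others. SWEET11 supplied most of that sum, and GIF1 was not called. The part of maternal tissue in the endosperm values was not tested. The 3 markers of dividing cells, of which 2 were lower, summed to 1473 and 2833 in endosperm and 3843 to 10653 in the others. PCNA, the marker that was not called, supplied most of the endosperm sum. Of the planned aleurone markers only VP1 was matched by name, and it is also one of the embryo markers. It read 521 and 816 in endosperm and 7539 and 8764 in embryo. The lipid transfer protein gene LTP-2, not matched to that list, read 25708 and 22332 in endosperm and 23411 and 23738 in embryo. The aleurone part of the endosperm values therefore cannot be read from VP1.

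Against the mean of the 3 tissues, 5152 probe sets were higher in endosperm (17.5% of those tested) and 8018 were lower (27.2%). Taken as 1 probe set per gene, over 16283 genes, 15.2% were higher and 31.6% lower. Requiring the call against embryo, leaf and root separately left 2262 probe sets higher (7.69%) and 2625 lower (8.92%). Among genes these shares were 7.0% and 11.1%. The median difference over all tested probe sets was -0.195 on the log2 scale, and it was -0.04 after quantile normalization, -0.55 after median scaling and -1.16 after scaling to the spike-ins. Of the calls against the mean, 39.1% were higher in the authors' scaling, 24.4% under median scaling and 9.22% under spike-in scaling. For the gene lists below, the comparison is with all 16283 genes, whose median difference was -0.332. Each list holds only genes whose symbol or synonym matched a set of names, and its count on the array is of these matched genes. Only 2453 of the 17905 genes with a probe set of their own had a readable name, so the lists are not whole families or pathways. Against single tissues, 4482 probe sets were higher and 5630 lower than in embryo, 6317 higher and 8846 lower than in leaf, and 5004 higher and 7408 lower than in root. These 3 comparisons share the endosperm arrays.

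**Figure D1:**
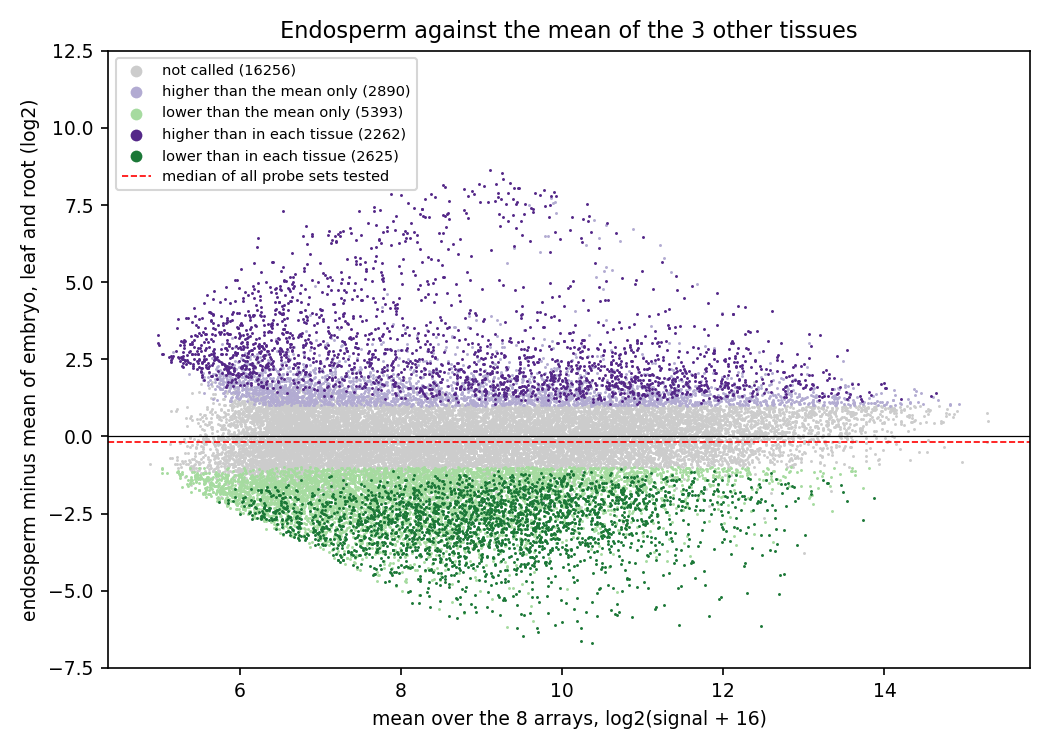
Difference of endosperm from the mean of embryo, leaf and root (log2, y axis) against the mean level over the 8 arrays (log2(signal + 16), x axis), 1 point per tested probe set, coloured by call. The red dashed line is the median of all 29426 probe sets (-0.195), and the largest positive differences exceed the largest negative ones in size.

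Embryo was the tissue nearest to endosperm in both directions. Of the 5152 higher probe sets, 2262 (43.9%) were higher than in every tissue, 2587 (50.2%) had endosperm as the highest tissue without a call against all 3, and 303 (5.88%) were higher still in another tissue. That other tissue was embryo for 227 of the 303. Among the 2262, embryo was next for 1341 (59.3%), root for 577 (25.5%) and leaf for 344 (15.2%). Their median gap was 1.85 on the log2 scale, 981 had a gap of at least 4-fold, 387 of at least 8-fold and 87 of at least 16-fold. Of the 387 with a gap of 8-fold or more, embryo was next for 325 (84.0%), so the widest gaps mostly had embryo in second place. Among the 2625 lower probe sets, embryo was the next lowest for 1093 (41.6%), root for 881 (33.6%) and leaf for 651 (24.8%). Their median gap was also 1.85, and 300 lay at least 8-fold below the next lowest tissue. In all, 3959 probe sets were higher in endosperm than in leaf and in root. They comprise the 2262 above and 1697 (42.9%) that were not called higher than in embryo. The 5560 below leaf and root comprise the 2625 and 2935 (52.8%) that were not called lower than in embryo.

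**Figure D2:**
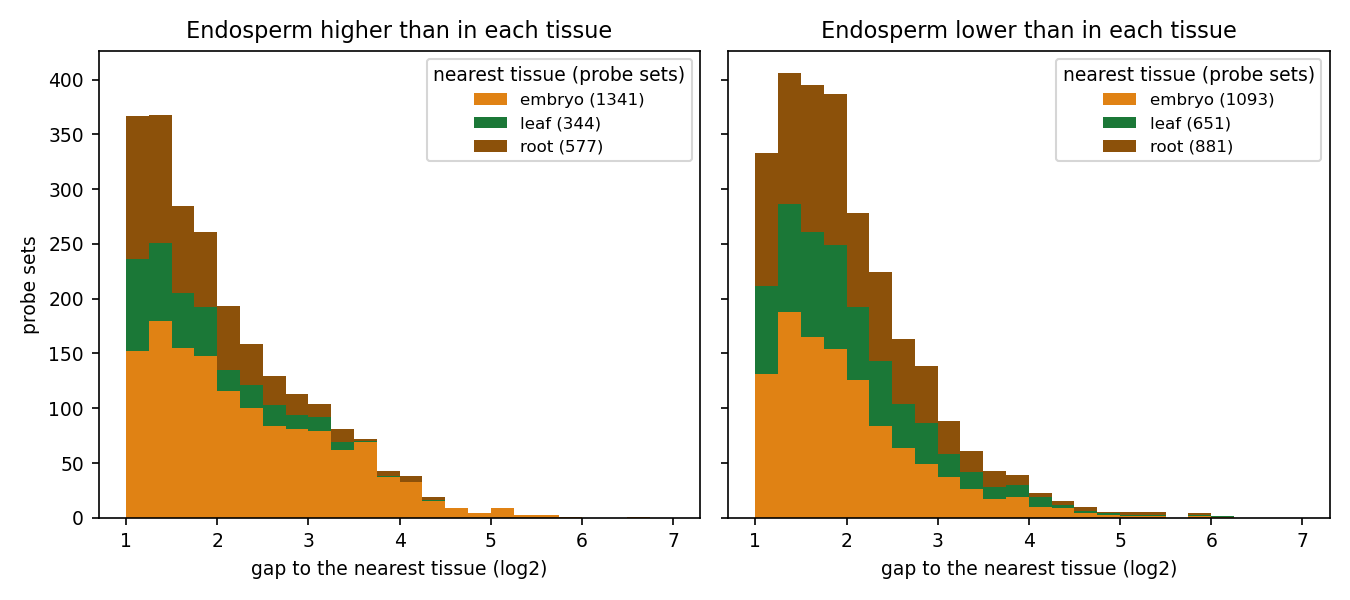
Probe sets called higher (left) or lower (right) in endosperm than in each other tissue, by the size of the gap to the nearest tissue (log2, x axis; number of probe sets, y axis) and coloured by which tissue was nearest. Embryo was nearest for 1341 of 2262 and 1093 of 2625 probe sets, and the gaps above 3 on the left are mostly embryo.

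Seed storage proteins were among the largest differences. Of the 7 tested storage protein genes (8 on the array) 6 were higher in endosperm and 5 of these were higher than in each tissue, with a median difference of 7.88. Spike-in scaling left all 6 higher than the mean, but of the 5 only GluC kept its call against each tissue. Without probe sets marked as cross-hybridizing, 3 members were higher. The prolamin probe set read 66802 and 51019 on the endosperm arrays, 12744 and 17674 in embryo and at most 27.6 on the leaf and root arrays. Glutelin GLUA-1 read 50485 and 39544 in endosperm, 8881 and 12612 in embryo and at most 9.5 in leaf and root. The glutelin gene GluC read 40646 and 30584 in endosperm, 3889 and 6075 in embryo and at most 10.2 in leaf and root. In all 3 the endosperm arrays lay above both embryo arrays and leaf and root lay below the test's signal minimum of 100. Their differences from the mean were 7.91 ± 0.33 (SE, adjusted p = 1.08e-06), 8.06 ± 0.28 (SE, adjusted p = 6.85e-07) and 8.18 ± 0.31 (SE, adjusted p = 9.61e-07). The gap to embryo was much smaller, 1.96, 2.08 and 2.85. GLUB-5, a glutelin of the B group, was the member that was not higher than in each tissue. It read 59009 and 47479.9 in endosperm and 30055 and 27268 in embryo, a gap of 0.89 ± 0.38 (SE, adjusted p = 0.0965), and its groups did not overlap. GLUA-3 and GLUA-2 were higher than in each tissue, with gaps of 1.92 and 1.31, although only 1 of the 2 tested GLUA-2 probe sets was called. GLB, matched by its symbol, read 2319.5 and 2938 in endosperm and 3359 to 4713 elsewhere, below all 6 other arrays, and was not called. Storage protein genes have near-identical copies, and several of these probe sets are marked as matching more than 1 transcript, so a signal may belong to the family rather than the single gene. Signals of 30000 or more were read for 194 and 132 probe sets on the endosperm arrays and for 1 to 78 on the others.

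The list of seed inhibitors and RA proteins split in opposite directions. Of its 8 tested genes 4 were higher than in each tissue and 3 were lower than the mean (median 3.7), against 15.2% and 31.6% of all genes. RAG1, a seed protein of the amylase and trypsin inhibitor family, had the widest gap of all genes with a readable name. It read 60056 and 39705 in endosperm, 2620 and 2989 in embryo and at most 23.9 in leaf and root, with a difference of 8.62 ± 0.37 (SE, adjusted p = 1.08e-06) and a gap of 4.12 ± 0.45 (SE, adjusted p = 0.000236). Its family members RAG2 and RA5 were as bright in endosperm (72046 and 49067, and 57458 and 39885) but read 29489 and 23679 and 25828 and 21526 in embryo, so their gaps were only 1.17 and 1.02. Their calls against each tissue were lost under quantile normalization, median scaling and spike-in scaling. RASI, the inhibitor of amylase and subtilisin, read 5575 and 6259 in endosperm and 476 and 418 in embryo, a gap of 3.68 ± 0.39 (SE, adjusted p = 0.000208). In contrast RBBI3.3, a Bowman-Birk trypsin inhibitor, read 292 and 690 in endosperm and at least 8584 on every other array. Oryzacystatin OC-I, an inhibitor of cysteine proteases, read 983 and 945 against at least 5576. Both were lower than in each tissue, with differences of -5.11 and -3.03, and OC-III, with a difference of 1.0, was not called.

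The listed starch synthesis genes were higher in endosperm with 1 exception. Of the 6 genes matched by name, all tested, 5 were higher than in each tissue and 1 was lower, with a median difference of 4.03. Spike-in scaling left the 5 higher than the mean but ended the calls of Wx, SS1 and Sbe1 against each tissue, and ALK and AGPS2 kept theirs. Sbe1 also lost it under quantile normalization and median scaling. Wx encodes the granule-bound starch synthase that makes amylose. It read 33847 and 33952 in endosperm, 9519.9 and 9035 in embryo and at most 116 in leaf and root, a difference of 6.42 ± 0.21 (SE, adjusted p = 6.85e-07) and a gap of 1.87 ± 0.26 (SE, adjusted p = 0.000812), and all 5 of its tested probe sets were higher. ALK, the soluble starch synthase of the IIa type that shapes amylopectin chains, had the second widest gap among readable names. It read 31628 and 25617 in endosperm, 2030.2 and 1494 in embryo and at most 27.3 in leaf and root, a gap of 4.02 ± 0.39 (SE, adjusted p = 0.000145). AGPS2, the small subunit of ADP-glucose pyrophosphorylase, read 42561 and 29199, 6601 and 7079 in embryo, 3332 and 3817 in leaf and at most 560 in root. Unlike the storage proteins it was well above the signal minimum in all 4 tissues, and its gap to embryo was 2.36 ± 0.29 (SE, adjusted p = 0.000443). The branching enzyme Sbe1 and starch synthase SS1 were higher than in each tissue by gaps of 1.21 and 1.69, again with embryo next. SS2, another starch synthase, read 43.8 and 165 in endosperm, 220 and 189 in embryo, 1029 and 1055 in leaf and 520 and 524 in root. It was lower than the mean (-2.26 ± 0.41 SE, adjusted p = 0.0018), and its endosperm values were the lowest of the 4 tissues without a call against embryo. Genes of starch turnover behaved otherwise, with 1 of the 6 tested genes higher and 4 lower (16.7% and 66.7%; median -1.8, 8 on the array). That median was -0.95 without endosperm 1 and -2.65 without endosperm 2. The alpha-amylase AMY1A read 1.91 and 1.61 in endosperm, at most 4.17 in embryo and leaf and 15001 and 9999.7 in root. RAmy3E, another alpha-amylase, read 492 and 1220.4 in endosperm and 23353 and 18209 in embryo. It was called higher than the mean (1.32 ± 0.42 SE, adjusted p = 0.0263) while lying far below embryo, and the call was lost without endosperm 2, without either embryo array or without leaf 2. GWD3, a glucan water dikinase of starch degradation, was lower than in each tissue (-2.92 ± 0.37 SE, adjusted p = 0.000276).

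**Figure D3:**
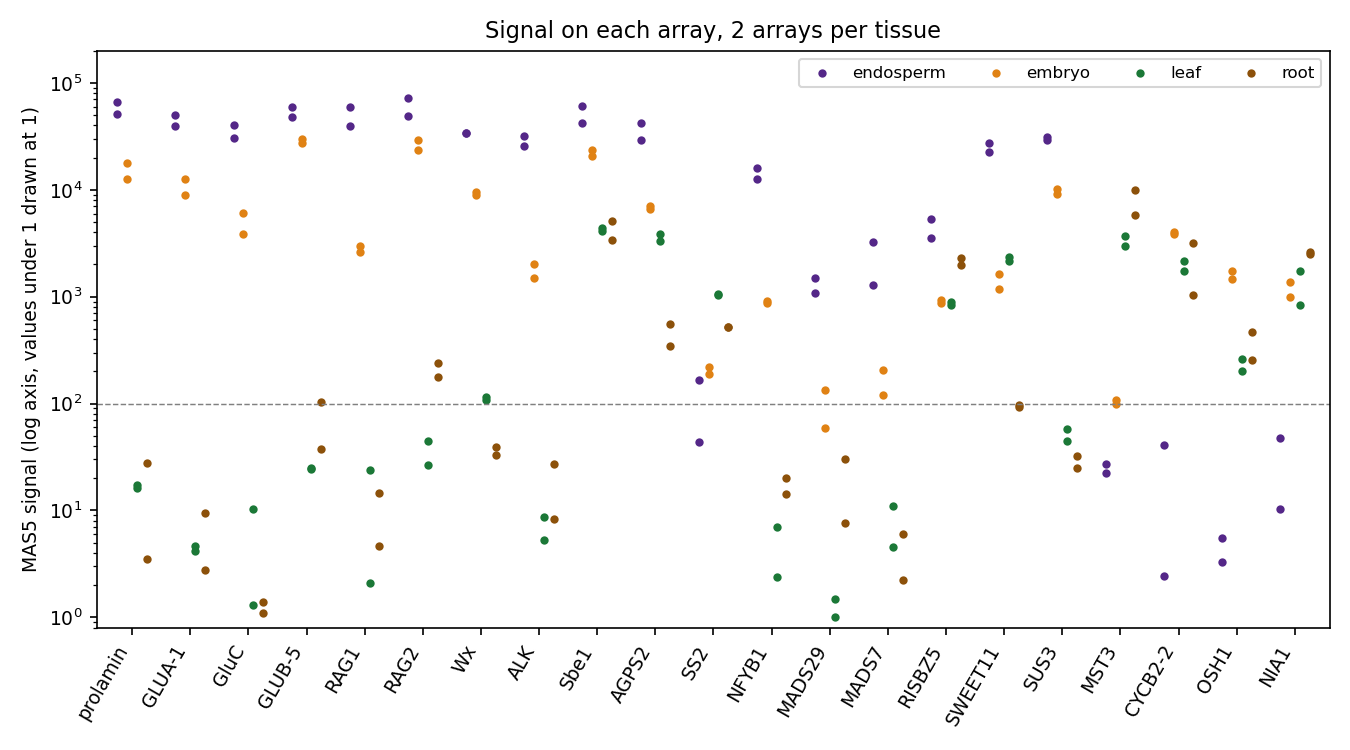
MAS5 signal on each array (log axis; values under 1 are drawn at 1) for 21 genes, 2 points per tissue, with the signal of 100 used in the filter as a dashed line. The purple endosperm points lie above all others for the storage, starch and regulator genes except SS2. They lie below all others for SS2, MST3, CYCB2-2, OSH1 and NIA1.

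Genes that bring in and cleave sucrose differed member by member. Of 27 tested genes (31 on the array) 6 were higher and 10 lower, and 4 were higher and 4 lower than in each tissue, with a median of -0.444. These are 22.2% higher and 37.0% lower, near the 15.2% and 31.6% of all genes. SWEET11, a plasma membrane sugar exporter, read 27476 and 22516 in endosperm, 1183 and 1619.6 in embryo, 2134 and 2359 in leaf and 93.4 and 96.8 in root. Leaf rather than embryo was next, with a gap of 3.46 ± 0.27 (SE, adjusted p = 2.34e-05). SWEET15, of the same family, was higher than the mean (3.24) but read 3336 and 1342 against 919 and 1239.7 in embryo and was not called against it. Sucrose synthase SUS3 read 29368 and 31325 in endosperm, 10107 and 9153 in embryo and at most 58 in leaf and root, and lost its call against each tissue under spike-in scaling. SUS4 read 33648 and 18744 in endosperm and at most 4538 elsewhere, and SUS2 was higher than in each tissue by a smaller gap (1.05). The isoforms OsSUS5 and OsSUS6, were lower than the mean, with differences of -2.06 and -2.32, and overlapped embryo. OsSUS1 read 520 and 554 in endosperm against at least 8492 on every other array and was lower than in each tissue (-4.20 ± 0.21 SE, adjusted p = 2.07e-06). Sucrose synthases thus included both higher and lower members. Among importers, the monosaccharide transporter MST3 read 27.4 and 22.4 in endosperm, 99.6 and 107 in embryo and at least 2976 in leaf and root. OsSWEET1a was lower than in each tissue (-4.63 ± 0.39 SE, adjusted p = 3.22e-05). The sucrose transporter SUT1, which loads sucrose in filling grains, was not called (1346 and 2747 in endosperm and 703 to 4146 elsewhere). The cell wall invertase GIF1, a grain-filling gene, was not called either, with 134 and 782 on the endosperm arrays, which are far apart. Another cell wall invertase, CIN1, read at most 7.49 in endosperm and embryo and at least 766 in leaf and root.

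Of 19 genes of amino acid and nitrogen metabolism, 5 were higher (26.3%) and 10 lower (52.6%), with a median of -1.46. Under spike-in scaling 2 were higher. GLN1-3, a cytosolic glutamine synthetase, read 8127 and 6370.5 in endosperm and at most 851 on the other arrays, a gap of 3.32 ± 0.42 (SE, adjusted p = 0.000456). Other glutamine synthetase genes were lower, and GLN1-1 and the plastid form GLN2 had differences of -2.53 and -2.91, GLN2 in only 1 of its 2 tested probe sets. PPDKB, the cytosolic pyruvate orthophosphate dikinase of the grain, read 55771 and 41849 in endosperm, 21833 and 17018 in embryo, 1021 and 954 in leaf and 7150.2 and 4559 in root. The gap to embryo was 1.32 ± 0.27 (SE, adjusted p = 0.0053), and the call against each tissue was lost under quantile normalization, median scaling and spike-in scaling. Nitrate reductase NIA1 read 48 and 10.2 in endosperm and at least 836 on each of the 6 others, so its groups were separate. It was lower than in each tissue, with a difference of -5.24 ± 0.41 (SE, adjusted p = 2.23e-05). NAR2.2, a partner of nitrate transporters, was also lower than in each tissue (-3.84).

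Among genes listed as regulators of the grain, more were higher than lower in endosperm. In the list of 10 endosperm regulators, all tested, 6 were higher, 5 of them than in each tissue, and 1 was lower (60% and 10%). The median was 1.66. MADS6 and MADS29 passed the signal filter only with the endosperm arrays, which favours higher calls in this share. At a signal minimum of 200, 5 were higher and the median was 1.47. Under spike-in scaling 3 were higher and 2 lower. The list shares MADS6, MADS7 and MADS29 with the MADS-box list and NFYB1 with the NF-Y list, so these lists are not independent. MADS7 is in it through a synonym, and MADS29 is also counted above as a gene of maternal tissue. The list was matched by names and is not limited to regulators. One of its 6 higher members is GLUP4, described below as a small GTPase of proglutelin traffic. NFYB1, a subunit of the NF-Y complex that binds CCAAT boxes, read 12642 and 15926 in endosperm, 916 and 877 in embryo and at most 20.1 in leaf and root. Its difference was 7.38 ± 0.29 (SE, adjusted p = 9.86e-07) and its gap 3.96 ± 0.36 (SE, adjusted p = 0.000104), the third widest among readable names. Within the NF-Y family 5 of 11 members were higher, 4 of these than in each tissue, and 3 were lower (45.5% and 27.3%). Their median of -0.612 has no settled sign, since it was 0.07 without endosperm 1, -0.95 without endosperm 2, 1.18 at a signal minimum of 200 and 0.29 without cross-hybridizing probe sets. Without endosperm 2, 5 were lower. HAP2A, an NF-YA subunit, read 562 and 533 in endosperm and at most 160 elsewhere. HAP3A, like NFYB1 a B subunit, was higher by 1.72, whereas the B subunit HAP3I read 3.11 and 4.53 in endosperm and 1013 and 797 in leaf. RISBZ5, a bZIP factor, read 5324 and 3529 in endosperm, with root next (2281 and 1986). It was higher by 1.86 ± 0.23 (SE, adjusted p = 0.000258), a call that spike-in scaling ended. RSR1, an AP2-type repressor of starch genes in rice, was the lower member, with 63.4 and 209 in endosperm, 164 and 109 in embryo and at least 2096 in leaf and root. GPA2, GPA3 and FLO6 were not called, with differences of 0.62, -0.30 and 0.47.

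Of 21 tested MADS-box genes (31 on the array) 12 were higher (57.1%), 7 of them than in each tissue, and 3 were lower (14.3%), with a median of 1.72. Members such as MADS6 and MADS29 passed the signal filter only with the endosperm arrays, which favours higher calls in this share. At a signal minimum of 200, 9 were higher and the median was 1.31. The count of higher members was 7 without endosperm 1, 9 without endosperm 2 and 7 under spike-in scaling, with medians of 0.96, 1 and 0.31. MADS7 and MADS8 are E-class genes of the SEPALLATA group, known for floral organ identity. MADS7 read 1293 and 3271 in endosperm, 207 and 121 in embryo and at most 11.1 in leaf and root, and MADS8 read 3628 and 5438 in endosperm, 323 and 259 in embryo and at most 55.4 in leaf and root. MADS29, a B-sister gene known for the breakdown of the nucellus, read 1486 and 1075 in endosperm, 134 and 58.8 in embryo and at most 30.2 in leaf and root. The endosperm arrays were above all others for the 3 genes, with gaps of 3.57 ± 0.54 (SE, adjusted p = 0.00115), 3.87 ± 0.39 (SE, adjusted p = 0.000166) and 3.59 ± 0.53 (SE, adjusted p = 0.001). MADS6, of the AGL6 group, was fainter (119 and 202 in endosperm, at most 40 elsewhere) and also higher than in each tissue. MADS21, known as an ovule gene of the D class, was higher than in each tissue with a gap of 3.19. MADS50, a flowering-time gene of the SOC1 group, read 4.5 and 9.79 in endosperm, at most 3.96 in embryo and at least 635 in leaf and root, and was lower. MADS26 was lower as well (-2.96), and MADS16, with a difference of -0.59, was not called.

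Protein folding at the endoplasmic reticulum showed no common direction. Of 14 tested genes (15 on the array) 4 were higher and 4 lower (28.6% each). The median of -0.0232 has no settled sign, being 0.02 after quantile normalization, -0.13 without endosperm 1 and 0.08 without endosperm 2. Under spike-in scaling 1 was higher. The protein disulfide isomerase OsPDIL1-4 read 23583 and 19167 in endosperm and at most 3745 elsewhere, a difference of 3.49 ± 0.23 (SE, adjusted p = 1.01e-05). BIP1, the luminal Hsp70 chaperone, read 32577 and 25693 in endosperm and 4499.8 to 10740.2 elsewhere, higher by 2.01 ± 0.26 (SE, adjusted p = 0.000271) and no longer called under spike-in scaling. OsPDIL2-3 was higher than in each tissue (1.65), a call lost in the same scaling. The calreticulin gene CRT1 was lower (-1.11) and lost its call without endosperm 2. OsPDIL1-2 was faint everywhere and lower (-2.43). Glup3, the vacuolar processing enzyme that cleaves proglutelin, read 20919.9 and 10824 in endosperm and at most 4413 on the other arrays. It was higher than in each tissue (2.49 ± 0.29 SE, adjusted p = 0.000172) in both of its tested probe sets. GLUP4, the small GTPase Rab5a of proglutelin traffic, was higher by 1.47 ± 0.27 (SE, adjusted p = 0.00193) but not against every tissue. In the list of 2 tested proteases of cell death and germination, Glup3 was the higher member and the cysteine protease EP3A the lower (-1.69), with a median of 0.399 that became -0.54 under spike-in scaling.

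Of 42 tested heat shock proteins and factors (46 on the array) 10 were higher (23.8%) and 8 lower (19.0%), against 15.2% and 31.6% of all genes, with a median of 0.16. Under spike-in scaling that median was -0.81 and under median scaling -0.18. Without endosperm 1, 7 were higher and 5 lower. HSP26.7, a small heat shock protein, read 3112 and 1122 in endosperm, 289 and 575 in embryo and at most 46.4 in leaf and root. HSP17.4 read 5368 and 1441 in endosperm and at most 587 elsewhere. Both were higher than in each tissue, and in both endosperm 1 was more than 2-fold above endosperm 2. HSP16.9A was as bright in embryo (15961 and 14368) as in endosperm (13528 and 13423). HSFB4B and ARD1 were lower, with differences of -3.51 and -2.78, each in 1 of 2 probe sets. ARD1 is in the list by a name match, and its call against each tissue was lost in 15 of 24 settings.

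Several genes outside these lists had wide gaps. The 5 widest among genes without a readable name were LOC4346073, LOC4340204, LOC4342720, LOC4329778 and LOC4332927, whose products the gene table does not name. LOC4346073 read 6782 and 7539 in endosperm and at most 133 elsewhere, a gap of 5.66 ± 0.38 (SE, adjusted p = 3.81e-05). LOC4342720 read 42789.9 and 23175 in endosperm and 755 and 882 in embryo, a gap of 5.24 ± 0.36 (SE, adjusted p = 4.17e-05). LOC4340204 read 12494 and 1538 on the endosperm arrays, so that its level differed between repeats, against at most 89.2 elsewhere. The gaps of LOC4329778 and LOC4332927 were 5.21 and 5.19. Among signalling genes, the protein phosphatase OsPP2C27 read 27239 and 17658 in endosperm and 879 to 2052 elsewhere. The MAP kinase MPK2 read 7276 and 4704 and at most 765 elsewhere, with root next. Endosperm lay above the 6 other arrays in both, with gaps of 3.52 ± 0.30 (SE, adjusted p = 8.22e-05) and 3.42 ± 0.42 (SE, adjusted p = 0.000247). The DREB-type factor DREB2D was faint, 380 and 876 in endosperm and at most 30.5 elsewhere. OsRRA14, a response regulator of cytokinin signalling, read 186 and 1621 on the endosperm arrays and at most 40.4 elsewhere, and its call against each tissue was lost without embryo 1 and without embryo 2. LOC4340204, LOC4329778, LOC4332927, DREB2D and OsRRA14 passed the signal filter only with the endosperm arrays. Their direction was thus favoured by the selection, and their gaps are a description.

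Signal at or above 100 on both endosperm arrays and below 100 on all 6 others was read for 907 probe sets, of which 528 were called higher than in each tissue. The reverse pattern held for 902 probe sets, of which 734 were called lower than in each. Both patterns were defined by the same values that made the calls, and the 907 passed the signal filter only through the endosperm arrays. Their directions were thus set by the selection, and the counts are a description. Genes that were higher than in each tissue had a measured neighbour with the same call in 17.2% of cases (196 of 1140), against 13.2% of the other genes, by gene order in assembly ASM3414082v1. For lower genes these shares were 23.8% and 20.5%. The longest run was 4 genes in a row, LOC4342720, LOC4342721, RAG1 and RAG2. A run of 3 on the same chromosome, number 7, began with RA5. Cross-hybridization within families was not tested as a part of these runs.

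Many of the genes that were higher than the mean but not than every tissue were shared with the embryo. TIP3-1, the tonoplast aquaporin of seeds, read 49817 and 41741 in endosperm, 33678 and 27197 in embryo and at most 93.2 in leaf and root. The lipid transfer protein LTP-2 read 25708 and 22332 in endosperm and 23411 and 23738 in embryo, a gap of 0.02 ± 0.27 (SE, adjusted p = 0.959). The peroxiredoxin R1C-Prx, a seed antioxidant enzyme, read 17175 and 23025 in endosperm and 22820.5 and 20348 in embryo. In both genes endosperm and embryo overlapped, and leaf and root read at most 178. OC-IV, named as a cystatin, was higher than the mean (3.24) and below embryo, with 2804 and 3548 against 7548 and 9082. Among LEA proteins and maturation genes, 4 of 10 were higher and 5 lower than the mean, none of them against each tissue, with a median of -0.858, which was -1.18 without endosperm 1 and -0.38 without endosperm 2. Under spike-in scaling 1 was higher. The maturation factor VP1 and the LEA genes LEA3, rab25 and EM were higher than the mean through leaf and root, yet their endosperm levels lay below embryo by 3.61, 1.29, 3.21 and 2.81 on the log2 scale. The dehydrins RAB16B and RAB16D were lower than the mean (-2.68 and -3.33). Lipid transfer proteins and oleosins counted 1 higher, LTP-2, and 1 lower of 5 tested, with a median of 0.0417 that has no settled sign (0.54 without endosperm 1, -0.56 without endosperm 2).

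Of 60 tested cell cycle genes (63 on the array) 25 were lower (41.7%, against 31.6% of all genes), 15 of them than in each tissue (25%, against 11.1%), and 5 were higher (8.33%). Their median was -0.833, against -0.332 for all genes. The count of lower members was 19 without endosperm 1 and 19 after quantile normalization, near the share of all genes, and 45 under spike-in scaling. Only 3 were higher without endosperm 2, leaf 2 or root 1. CYCB2-2, a B-type cyclin of mitosis, read 2.45 and 41.3 in endosperm, 4002 and 3836 in embryo, 1748 and 2146 in leaf and 1037 and 3160.3 in root. Its difference was -6.21 ± 0.50 (SE, adjusted p = 2.54e-05) and it lay 5.81 below the next lowest tissue on the log2 scale. CYCB2-1 read 93.6 and 233 in endosperm against at least 731 elsewhere. The D-type cyclin CYCD4-2 was lower than in each tissue (-4.55). MCM2, MCM3, MCM4, MCM5, OsMCM6 and MCM7, the subunits of the replicative helicase, were all lower than the mean, with differences of -1.22 to -2.31. PCNA, the sliding clamp of replication, was not called (1377 and 2559 in endosperm, 2018 to 3894 elsewhere). The kinase CDKF-1 was higher than in each tissue (1.55), a call against the mean that spike-in scaling ended. CYCD5-2 had 1 probe set called higher and 1 called lower, so no direction is given for it.

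Factors of meristems and leaves were often lower in endosperm. In the list of KNOX, WOX and HD-Zip factors 26 of 43 tested genes were lower (60.5%) and 2 higher (4.65%; 49 on the array), with a median of -1.56. OSH1, the KNOX gene of shoot meristems, read 5.51 and 3.26 in endosperm, 1747 and 1448 in embryo, 259 and 202 in leaf and 466 and 254 in root. Roc6, an HD-Zip gene of the GL2 group, was also lower than in each tissue (-4.20). Its relative Roc4 went the other way and read 753 and 1597 in endosperm and at most 356 elsewhere (2.39 ± 0.38 SE, adjusted p = 0.000875). Of the 10 growth-regulating factors, known for leaf and stem growth, 8 were lower (80.0%) and none was higher. GRF1 read 82.7 and 83.4 in endosperm and at least 460 elsewhere, and GRF5 was not called (-0.71). The list's median was -1.62. G1L2, of the ALOG family, read 25.2 and 32.7 in endosperm and at least 1564 on every other array, a difference of -6.02 ± 0.26 (SE, adjusted p = 1.14e-06).

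Auxin genes were lower in 26 (45.6%, against 31.6% of all genes) and higher in 5 (8.77%, against 15.2%) of 57 tested (61 on the array). Of these, 17 were lower than in each tissue (29.8%, against 11.1%), with a median of -0.832. The lowest was pinA, which read 142 and 321 in endosperm and at least 12181 elsewhere (-6.16 ± 0.31 SE, adjusted p = 2.34e-06). IAA31, a repressor of the Aux/IAA family, read 60.9 and 59.9 in endosperm and at least 1094 elsewhere. The response factor ARF14 was higher than the mean (2.47 ± 0.38 SE, adjusted p = 0.00082), with 6405 and 2539 in endosperm and 2124 and 1998 in embryo, and ARF13 and GH3.4 were higher by 1.86 and 2.03. Cytokinin genes were lower in 15 (51.7%) and higher in 4 (13.8%) of 29 tested (31 on the array; median -1.35). LOGL1 and LOGL3, of the family that activates cytokinin nucleotides, were lower than in each tissue, with differences of -3.92 and -3.73, as were the histidine kinase genes HK3, HK4 and HK5 (-2.90, -3.35 and -2.38). Gibberellin and abscisic acid metabolism counted 2 higher (16.7%) and 4 lower (33.3%) of 12 (median -0.272), near the shares of all genes. Only 1 was lower without endosperm 1, embryo 2 or leaf 1 and 2 without leaf 2, and the median was 0.03 without root 1 and 0.06 without root 2. The 2 higher genes were higher than in each tissue. ABA8OX2, a hydroxylase that breaks down abscisic acid, read 11142 and 10242 in endosperm and at most 1824 elsewhere, a gap of 2.62 ± 0.25 (SE, adjusted p = 5.2e-05). Its paralogue ABA8OX1 read 130 and 510 in endosperm and 8920 and 8541 in leaf and was lower. GA20OX3, of gibberellin synthesis, was higher by 1.58 ± 0.25 (SE, adjusted p = 0.000932), a call that spike-in scaling ended.

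Genes of DNA methylation, Polycomb and small RNA were near the background, with 4 of 30 tested higher (13.3%) and 8 lower (26.7%; 31 on the array; median -0.093, which was 0.08 after quantile normalization). The 4 higher genes, all higher than in each tissue, were DRB3, AGO14, MET1-2 and DRB4. MET1-2, a maintenance DNA methyltransferase, read 2228 and 6012 in endosperm and at most 935 elsewhere (2.22 ± 0.40 SE, adjusted p = 0.00173). The other maintenance enzyme, MET1, had a difference of 0.93 and was not called. DRB3, which binds double-stranded RNA, read 475 and 530 against at most 68.9, and so passed the signal filter only with the endosperm arrays. AGO1D, an Argonaute, read 39.1 and 81.2 in endosperm and at least 280 elsewhere, and CMT3, a non-CG methyltransferase, was lower than in each tissue (-3.0). DNG701, a DNA glycosylase that removes methylated cytosine, read 127 and 278 in endosperm and at least 781 elsewhere (-3.50 ± 0.33 SE, adjusted p = 5.67e-05). Without endosperm 1 the list counted 2 higher and 4 lower, and without endosperm 2 it counted 2 higher and 9 lower, with a median of -0.77.

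Other genes below every tissue included OsPIP2;6, a plasma membrane aquaporin, which read 319 and 366 in endosperm and at least 10026 elsewhere. The NADPH oxidase OsrbohB read 114 and 14 against at least 1825, and the beta-glucosidase BGLU12 40.5 and 31.9 against at least 748. OsbZIP08 read 2.22 and 7.17 in endosperm and at least 437 elsewhere. Their differences were -5.09, -5.58, -4.72 and -5.01, and the endosperm arrays lay below all 6 others in each. Aquaporins as a list counted 11 lower (47.8%) and 5 higher (21.7%) of 23 tested (25 on the array; median -1.01, or -1.54 without endosperm 2), with TIP3-1 and TIP3-2 the 2 largest rises. Median and spike-in scaling left 2 higher.

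The largest falls against the mean that were not falls against embryo were in genes low in both dissected seed parts. Choosing genes without a fall against embryo largely built in that pattern. NAS2, a nicotianamine synthase of iron uptake, read 117 and 34.7 in endosperm, 69.4 and 41.2 in embryo, 10577 and 8402 in leaf and 19209.5 and 29620.1 in root. BURP17 read 65.4 and 21.2 in endosperm, 7.62 and 100 in embryo and at least 5421 in leaf and root. The calmodulin-like gene CML29 read at most 12.8 in the seed tissues and at least 1705 in leaf and root. The cinnamyl alcohol dehydrogenase gene CAD8A read at most 14.7 in the seed tissues and at least 1084 in leaf and root. The chitinase gene Cht2 read at most 37.9 in the seed tissues and at least 750 in leaf and root. For these genes endosperm and embryo overlapped or lay close together near the bottom of the scale, where a pseudocount of 16 shrinks differences. Of 65 tested mineral ion transporters 37 were lower (56.9%), 11 of them than in each tissue (16.9%), and 3 were higher (80 on the array; median -1.53). The silicon transporter Lsi6 was lower than in each tissue (-4.73), and the metal transporter Nramp1 was lower than the mean (-3.78) while embryo was also low (37.7 and 75.9). In the list of nicotianamine and iron genes 9 of 22 were lower (40.9%) and 3 higher (13.6%; 27 on the array; median -1.02). Neither list had a higher member under median or spike-in scaling, and each had 1 without endosperm 1. The iron list also had 1 without endosperm 2.

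Defence and cell wall genes were often lower in endosperm. Chitinases and germin-like proteins had 14 of 17 tested genes lower (82.4%; 19 on the array), 1 higher and a median of -3.07. The exception, the germin-like gene GER3, read 44997 and 37070 in endosperm, 13555 and 10345 in embryo and at most 1323 in leaf and root (5.20 ± 0.46 SE, adjusted p = 4.35e-05). GER4, by contrast, read 59.8 and 40.8 in endosperm and at least 616 elsewhere. Diterpenoid phytoalexin genes were lower in 10 of 16 tested (62.5%; 18 on the array; median -1.55), with 1 lower than in each tissue. Without endosperm 1, 7 were lower, 2 were higher and the median was -1.01. The cellulose synthase superfamily had 13 of 25 tested genes lower (52.0%) and none higher (29 on the array; median -1.02). CSLH1 was lower than in each tissue (-4.41) and CESA1 was not called (-0.01). Expansins, which loosen cell walls, counted 11 lower (47.8%, against 31.6% of all genes) and 4 higher of 23 tested (29 on the array; median -0.793). Without endosperm 1, 6 were lower with a median of -0.37, and without endosperm 2, 13 were lower with a median of -1.81. EXPB17 read 16.8 and 47.1 in endosperm and at least 584 elsewhere, and EXP10 was higher than in each tissue (1.67), a call against the mean that spike-in scaling ended. CASP-like membrane proteins had 10 of 22 lower (45.5%) and 3 higher (13.6%; median -0.822). The 3, OsCASPL5B3, OsCASPL4B4 and OsCASPL5A1, were higher than in each tissue.

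Green tissue lists were low on endosperm 1 and less so on endosperm 2. Photosystem and light harvesting genes counted 2 lower (22.2%) and none higher of 9 (median -0.803). Without endosperm 1, 2 were lower and the median was -0.09, without endosperm 2, 4 were lower and the median was -1.57, and 4 were lower without root 2. Without root 1 or root 2 the median was -0.53 or -1.05. Calvin cycle and photorespiration genes counted 5 lower (50%) and 1 higher of 10 tested (11 on the array; median -1.35). Without endosperm 1, 3 were lower with a median of -0.37, and without endosperm 2, 7 were lower with a median of -1.98. Chlorophyll synthesis counted 4 lower (40.0%) and 1 higher of 10 (median -0.473), and 2 lower without endosperm 1, leaf 1 or leaf 2. CAB2R, a light harvesting protein, read 3028 and 24306 on the endosperm arrays, 21118 and 18283 in leaf, 15512 and 3976 in root and 1149.5 and 714 in embryo, and was not called. LHCP read 349 and 2769 on the endosperm arrays, and RBCS, the small subunit of Rubisco, 292 and 2315. For each of these 3 genes endosperm 2 was several fold above endosperm 1. The medians over the tested members of the 3 lists were 454, 480 and 144 on endosperm 1 and 1547, 1745 and 304 on endosperm 2. RBCS was lower than the mean (-2.00 ± 0.75 SE, adjusted p = 0.0495) in 1 of 3 probe sets, and that call was lost without endosperm 1 and under a replicate block. The part of green tissue in the endosperm 2 sample was not tested.

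Cytosolic and organelle ribosomal protein genes had 2 higher (8.33%) and none lower of 24, with a median of 0.739, the sign of which turned under spike-in scaling (-0.3). The count of higher members was 8 without endosperm 1, 3 without leaf 1 or root 1 and 4 without root 2. RPL9 and rps20 were the higher members (1.10 and 1.52), and both lost the call under quantile normalization. Genes of hypoxia and fermentation had 1 lower and none higher of 5 tested (6 on the array). Their median of -0.046 has no settled sign, being 0.05 without endosperm 1 and 0.31 without endosperm 2, and in neither case was a member lower. The pyruvate decarboxylase PDC2 read 11829.6 and 15689 in endosperm and was not called.

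**Figure D4:**
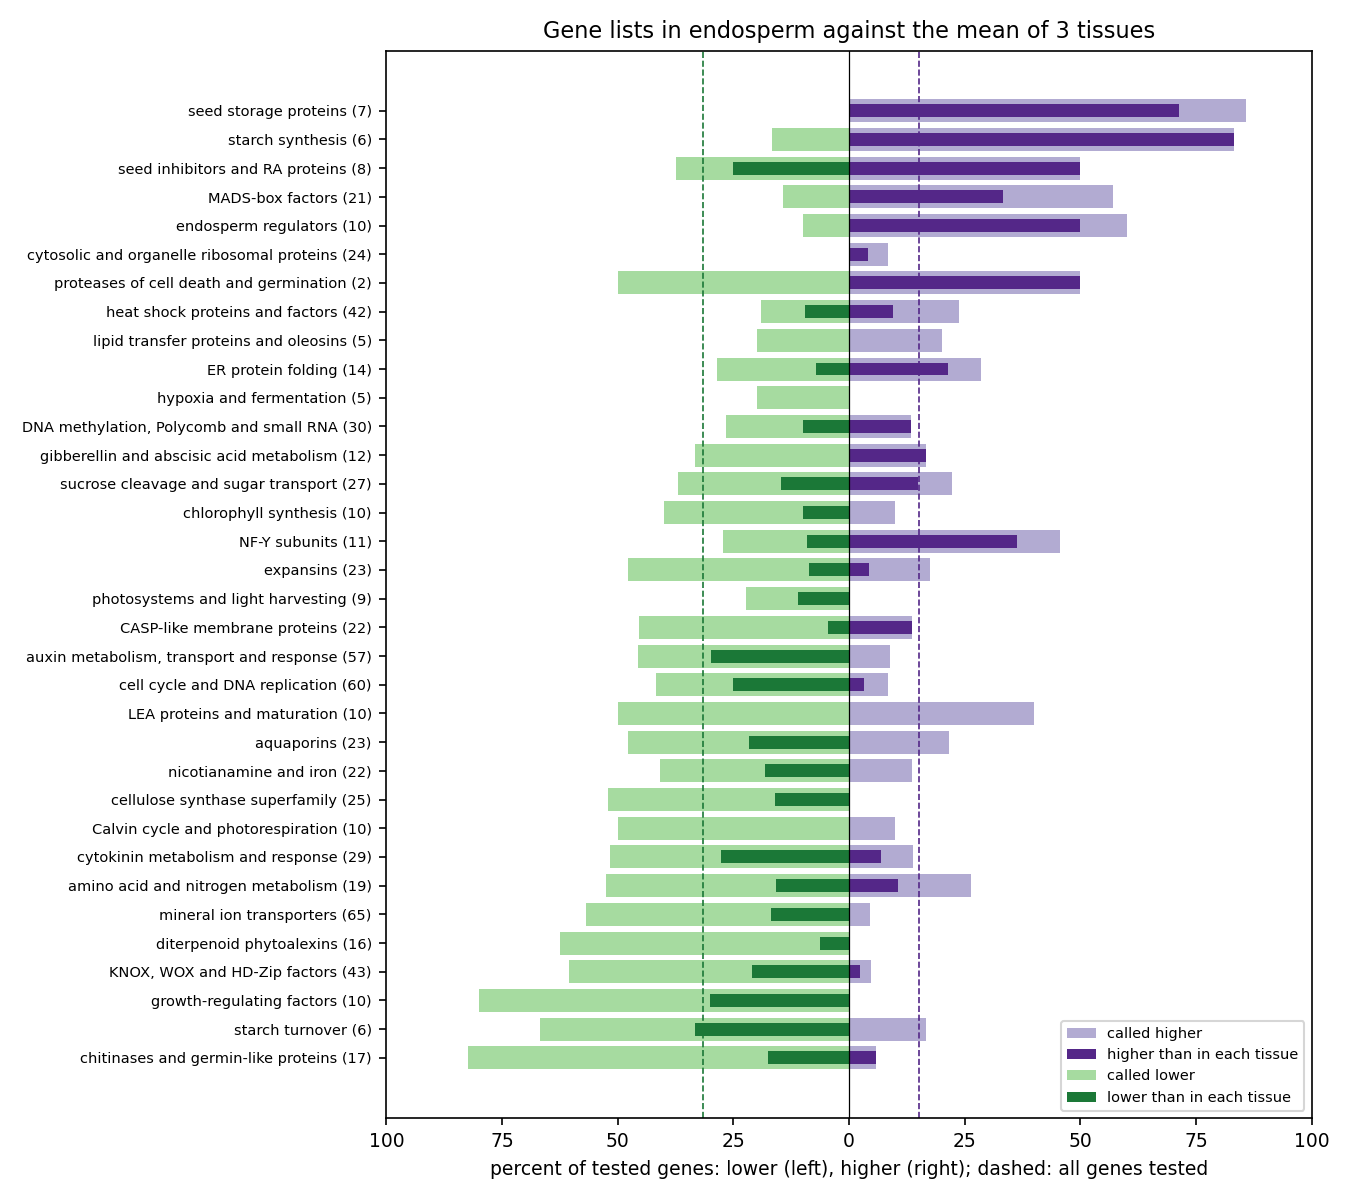
Percent of tested genes in each of 34 lists that were called higher (right) or lower (left) in endosperm than the mean of embryo, leaf and root; the narrow bars are the part called against each tissue, and dashed lines mark all genes (15.2% higher, 31.6% lower). Lists are ordered by median difference with the number tested in brackets. From the top these are storage proteins, starch synthesis, seed inhibitors and RA proteins, MADS-box factors and endosperm regulators. Chitinases and germin-like proteins stand at the bottom.

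The endosperm arrays, which themselves made the calls, are described here without a test. Of the 2262 probe sets higher than in each tissue, 99.3% were at least 2-fold above the mean on endosperm 1 and 98.4% on endosperm 2. The median difference was 2.53 on endosperm 1 and 2.35 on endosperm 2. Of the 2625 lower probe sets, 99.8% and 98.6% were at least 2-fold below, with medians of -2.86 and -2.39, and 72.0% were lower on endosperm 1. The 2 arrays were at least 2-fold apart in 18.2% of the higher and 25.6% of the lower probe sets, against 26.0% of all tested. Leaving out endosperm 1 gave 1536 probe sets higher than in each tissue, of which 1229 were among the 2262, and leaving out endosperm 2 gave 1931, of which 1464 were among them. Without endosperm 2, 3539 probe sets were lower than in each tissue. Leaving out an embryo array moved these counts the most, to 1438 and 1470 higher and to 1705 and 1678 lower than in each tissue. Leaving out 1 array ended the call against each tissue for some genes. Among the higher genes these were OsRRA14, prolamin, GLUA-2, RA5, RAG2, Sbe1, RISBZ5, MADS6, PPDKB, OsPDIL2-3, CDKF-1, AGO14, MET1-2, HAP2A, HAP3A, GA20OX3, rps20, HSP26.7, HSP17.4, GER3 and OsCASPL5B3. Among the lower genes they were MST3, OsPDIL1-2, AGO1D, ARD1, HAP5B, GRF7 and OsCASPL2D1.

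**Figure D5:**
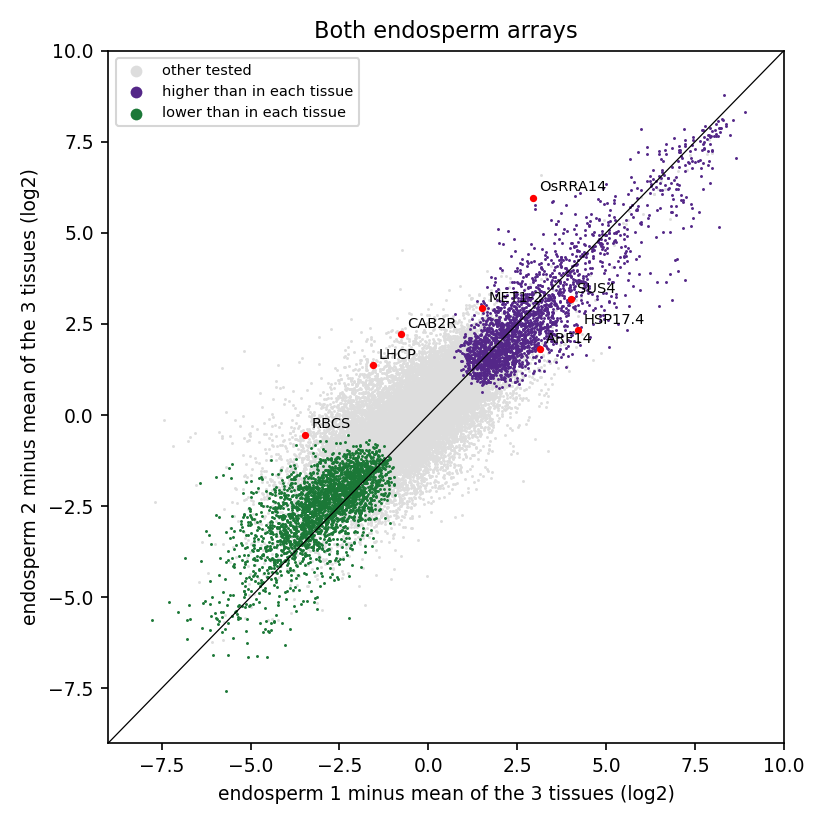
Difference from the mean of embryo, leaf and root (log2) on endosperm 1 (x axis) and endosperm 2 (y axis) for every tested probe set; purple points were higher and green points lower than in each tissue, and the line marks equal values. Red points are 8 named genes, of which CAB2R, LHCP and RBCS lie above the line and HSP17.4 and ARF14 below it.

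The whole seedling entered no test and is described at the probe sets called against each tissue. Those were picked for endosperm values beyond leaf and root, organs that a whole seedling holds. A distance from seedling was therefore largely built in, and no share over all probe sets is given beside it. Of the 2262 probe sets higher in endosperm than in each tissue, 2111 (93.3%) were at least 2-fold above the seedling mean and 14 were higher in seedling. Of the 2625 lower probe sets, 2503 (95.4%) were at least 2-fold below it and 7 were lower in seedling. RAG1 read 10.9 and 1.44 on the seedling arrays, Wx 88.4 and 138 and NFYB1 3.94 and 29.5. These 3 genes were thus low in seedling as in leaf and root, and CYCB2-2 (1068 and 922) and NIA1 (9982 and 12220) were well above their endosperm levels.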

How the data were processed

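Total RNA of embryo, endosperm, leaf, root and seedling was hybridized to Affymetrix rice genome arrays, with 2 arrays per tissue. The authors deposited MAS5 signal intensities on a linear scale, per the submitters' processing notes. The deposited intensities of each array had a mean of 500 after trimming below the percentile 2 and above 98, a value found from the table. No scanner files were used. The genome build behind the array design is not given in the sources used here. Of 57381 probe sets, 187 were controls and were left out. Of the others, 22436 had 1 gene in the platform annotation, 95 had several and 34663 had none. Gene names came from that annotation and from RefSeq gene records (assembly ASM3414082v1), and an unnamed probe set is only unnamed here.

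Tests used limma 3.58.1 in R 4.3.3 on log2(signal + 16), with 1 mean per tissue over 8 arrays and eBayes with its trend option (5.02 prior added to 4 residual degrees of freedom). Fold differences on this scale understate changes of low signals. P-values were adjusted by the Benjamini-Hochberg method over all 29426 tested probe sets. They and the SEs rest on 1 spread per probe set, pooled over the repeats of the 4 tissues. They do not measure the spread of endosperm alone. The share of tested probe sets at least 2-fold apart between repeats was 26% in endosperm and 24.8% in root. It was 7.09% in embryo and 3.21% in leaf. The separate origin of the repeats is known only from the design text. Per gene, the probe set with the highest mean over the 8 arrays was used. The fit and the counts were tested on simulated data.

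The members and lists were chosen with earlier results of these data known. The text names the 12 readable and 5 other genes with the widest gap above the next tissue, the 6 highest shared ones, the 8 lowest and 6 shared low ones. From each list it names up to 3 higher, 2 lower and 1 uncalled member, and all members of the storage, starch, regulator and marker lists where needed. Further list members were named after their values were seen. Lists are described by counts and medians beside all genes. Alternatives were the pseudocount, signal filter, normalization, variance trend, test threshold, all 10 arrays, a replicate block, a Gapdh covariate, cross-hybridizing probe sets and each array left out. Same-numbered arrays had deviations that correlated between -0.0498 and 0.096, so numbers were not taken as pairs. A planned search for promoter motifs was not run.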

Additional observations from a re-analysis of the deposited data

How the results depend on the processing

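The counts moved with the scaling and the strictness of the test. Against 5152 probe sets higher than the mean, median scaling gave 3321, spike-in scaling 1482 and a test against a 2-fold minimum 1890. The 8018 lower ones became 14592 under spike-in scaling and 3501 under the 2-fold test. The 2262 higher than in each tissue became 1273 (median scaling), 583 (spike-in scaling), 681 (2-fold test) and 1316 (adjusted p of 0.01). The 2625 lower than in each tissue became 5775 (spike-in scaling), 794 (2-fold test) and 1478 (adjusted p of 0.01). The cause of these shifts was not tested. Without any signal filter the median difference of all probe sets was 0.17.

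Leaving out 1 array at a time gave 4029 to 5223 higher and 6190 to 8626 lower than the mean, and 1438 to 2221 higher and 1678 to 3539 lower than in each tissue. Leaving out endosperm 2 with root 1, a setting chosen after seeing the data, gave 4445 lower than in each tissue. A fit with the replicate number as a block gave 5130, 8031, 2244 and 2624 for the 4 counts, and it ended the call of RBCS.

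Of the 166 named genes with a call, 122 kept it under every setting that tested them. The sign of tom2, a member of the iron list, turned under spike-in scaling (-0.0015). With 2 arrays per tissue, differences near 2-fold are weakly resolved, and levels near a signal of 16 have no reliable order.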
